A study of Mus musculus with 7 samples.

Results

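RAW264.7 is a mouse macrophage-like line that can form osteoclasts, and 8 genes of osteoclast formation and bone resorption were followed in it with and without Gfi1. They were chosen by name, with earlier results of these data known: Tnfrsf11a, Nfatc1, Mitf, Car2, Atp6v0d2, Ctsk, Acp5 and Mmp9. Of these 8, 6 were measured among 9999 named genes. Acp5 and Mmp9, which encode tartrate-resistant acid phosphatase and a gelatinase of osteoclasts, had no probe set with a single gene symbol among the 19431 deposited. Their expression was not analysed here. There were 4 arrays of RAW264.7 cells called Gfi1 knockout here and 3 arrays of wild-type RAW264.7 cells. Gfi1 is a zinc finger repressor of transcription in blood cells. All cells were cultured in serum-containing medium and sampled at a time labelled T0 without treatment, so no osteoclast-inducing cytokine is named for any array. The knockout labels read RAW GfI1-1, with no statement of how the gene was edited or of how many clones were used. The titles call all 7 arrays biological replicates, without saying whether these came from separate cultures. The p-values therefore rest on the spread of these 7 arrays alone, and how much of it is technical is not known.

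Osteoclasts arise from cells of the macrophage line when the cytokine RANKL binds its receptor RANK, encoded by Tnfrsf11a, in the presence of the growth factor M-CSF. RANK signals through TRAF6 and NF-kappaB to c-Fos and then to NFATc1, the transcription factor that commands the programme, and MITF works beside it. Their targets let the cells fuse, secrete acid onto bone through carbonic anhydrase II (Car2) and a proton pump that contains the d2 subunit (Atp6v0d2), and digest collagen with cathepsin K (Ctsk).

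The arrays did not fall into 2 even groups. The SD of the log2 difference between arrays was taken over all 19431 probe sets. It was 0.16 between knockout replicates 1 and 2 and 0.14 between knockout replicates 3 and 4, but 0.52 to 0.54 between these pairs. Among wild-type arrays it was 0.13 to 0.19. Between knockout and wild-type arrays it was 0.56 to 0.57 for replicates 3 and 4, and 0.80 to 0.81 for replicates 1 and 2. No label separates the pairs, and results are given with and without each of them where they rest on one. Median signal per array was 95.5 to 96.5 in knockout and 93.8 to 101 in wild type, on the linear scale of deposit. The probe set of Gfi1 itself read 4.93, 5.02, 3.97 and 3.97 in knockout replicates 1 to 4, against 2.66, 2.85 and 2.98 in wild type (log2 signal). It was thus higher in the arrays called knockout (limma adjusted p = 0.00447). Every wild-type value of Gfi1 lay under the limit of the lowest 5% of genes, which averaged 3.52 in wild type. Such values left little room for a fall. Every knockout value lay above the limit in knockout, which averaged 3.47. A probe set outside an edited stretch also need not fall. The labels could therefore not be checked with the probe set of Gfi1, and every direction given rests on them. All 8 macrophage markers were measured, and 6 were lower in knockout and 0 higher at a limma adjusted p of 0.05 over all genes (Itgam and Fcgr1 did not pass). That is 75%, all lower, beside 43.1% of all genes in either direction and 21.6% lower. Their summed signal was 16263 to 17357 in knockout arrays against 25727 to 25913 in wild-type arrays. Of the 8, 4 passed as lower with the knockout pairs (replicates 1 and 2, and 3 and 4) as random blocks. Lyz2 (adjusted p = 0.116) and Spi1 (0.230) did not. That fit takes arrays of a block as correlated (estimated at 0.794), and the wild-type arrays together formed a further block. In it 9.04% of all genes passed. With only knockout replicates 1 and 2, Itgam was higher (0.23, adjusted p = 0.0289) and 6 markers were lower, beside 68.1% of all genes called. With only replicates 3 and 4 all 8 were lower, beside 57% of all genes called. The marker with the highest signal, the lysozyme gene Lyz2, kept a log2 signal of 12.75 to 13.00 in knockout, against 13.29 to 13.33 in wild type. Of 6 markers of mature osteoclasts only Dcstamp was measured, and of 8 markers of osteoblasts and stroma only Sp7 and Pdgfrb. Of the markers listed for neutrophils (6), dendritic cells (4), T cells (4) and B cells (4), 0 were measured. Shares of all genes are thus shares of the 9999 named genes with a deposited probe set.

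The measured osteoclast genes did not move one way. Car2 rose steeply and Tnfrsf11a slightly in knockout, Atp6v0d2, Nfatc1 and Mitf fell, and Ctsk stayed under the threshold near the bottom of the signal range. In all, 5 of 6 passed the limma threshold, an adjusted p of 0.05 over all genes, and the background was wide: 43.1% of all 9999 genes passed it, 21.5% higher and 21.6% lower in knockout. With the knockout pairs as random blocks, 3 of the 6 passed (Car2 higher, Atp6v0d2 and Nfatc1 lower), against 9.04% of all genes. For 5 of the 6 the knockout and wild-type arrays did not overlap, which held for 54.5% of all genes. By at least 2-fold, 2 of the 6 changed (Car2 and Atp6v0d2), against 7.56% of all genes (3.75% higher and 3.81% lower in knockout). The median difference of the 6 was -0.39 on the log2 scale, beside -0.01 over all genes. As the genes were chosen with earlier results known, these shares describe them and carry no test. Because RNA came from whole cultures, fewer cells of a kind and less RNA per cell cannot be told apart.

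**Figure D1:**
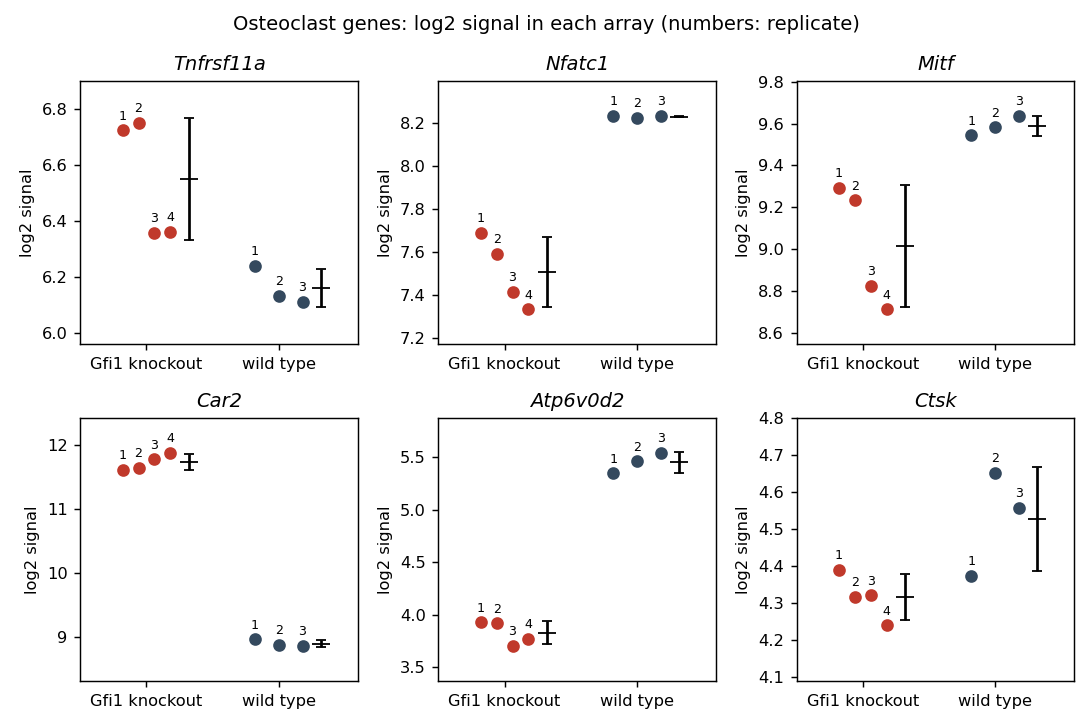
Log2 signal of the 6 measured osteoclast genes in each array, with Gfi1 knockout on the left and wild type on the right of every panel. Points are arrays numbered by replicate, and the bar beside each group is its mean with SD (n = 4 and n = 3). Car2 lies above 11.6 in every knockout array and below 9 in every wild-type array, while Tnfrsf11a and Mitf show knockout replicates 1 and 2 apart from 3 and 4, and Ctsk overlaps between groups.

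Tnfrsf11a encodes RANK, the receptor through which RANKL starts osteoclast formation. Its brighter probe set gave a log2 signal of 6.72, 6.75, 6.36 and 6.36 in knockout replicates 1 to 4, against 6.24, 6.13 and 6.11 in wild type. All knockout arrays lay above all wild-type arrays, but replicates 3 and 4 exceeded the highest wild-type array by little. The mean was 6.55 ± 0.22 (SD, n = 4) in knockout and 6.16 ± 0.07 (SD, n = 3) in wild type, a difference of 0.39 (SE 0.12, limma adjusted p = 0.0381), or 1.31-fold. The second probe set pointed the same way without passing, with 6.26, 6.28, 5.90 and 5.96 in knockout against 5.88, 5.78 and 5.76 in wild type, a difference of 0.29 (SE 0.12, adjusted p = 0.0787 over all probe sets). The rise was 0.58 when only knockout replicates 1 and 2 were used and 0.20 when only replicates 3 and 4 were. It passed in both cases (limma adjusted p = 0.00025 and 0.0273), beside 68.1% and 57% of all genes called. Leaving out a pair also left the spread between the pairs out of these p-values. Tnfrsf11a did not pass with the knockout pairs as random blocks (adjusted p = 0.251), nor without knockout replicate 1 (0.0801), knockout replicate 2 (0.0753) or wild-type replicate 1 (0.0712), 2 (0.114) or 3 (0.119). Gfi1 binds DNA at a core of AATC, and the promoter of Tnfrsf11a is shown for that motif as it is the one called rise with a window in the RefSeq promoter table. In the RefSeq window of 250 bases before to 50 after its start (chr1:105780473-105780772, GRCm38.p6, plus strand), no AATC was found on either strand, and no letters are therefore in capitals.
Tnfrsf11a: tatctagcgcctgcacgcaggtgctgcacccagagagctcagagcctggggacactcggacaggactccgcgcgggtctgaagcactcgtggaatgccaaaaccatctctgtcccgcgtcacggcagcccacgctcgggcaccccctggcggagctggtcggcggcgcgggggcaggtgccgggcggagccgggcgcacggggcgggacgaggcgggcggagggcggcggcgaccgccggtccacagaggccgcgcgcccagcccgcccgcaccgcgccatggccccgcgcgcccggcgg
AATC on either strand was present in 73.1% of the 32851 windows of the same length in the RefSeq table. The same window held none of the NFAT core GGAAA (61.3% of windows), the AP-1 motif TGANTCA (7.8%) or the E-boxes that MITF can bind, written CATGTG (14.2%) or, in its palindromic form, CACGTG (7.2%), each searched on both strands.

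Nfatc1 encodes the calcium- and calcineurin-dependent factor that drives the osteoclast programme downstream of RANK. Its brightest of 4 probe sets (1428479_at) read 7.69, 7.59, 7.41 and 7.33 in knockout, against 8.23, 8.22 and 8.23 in wild type. Every knockout array lay below every wild-type array, and the wild-type arrays were almost level. The mean was 7.51 ± 0.16 (SD, n = 4) in knockout and 8.23 ± 0.0042 (SD, n = 3) in wild type, a fall of 1.65-fold (log2 difference -0.72, SE 0.10, limma adjusted p = 0.00115). It passed with the knockout pairs as random blocks too (adjusted p = 0.0373). The other 3 probe sets of Nfatc1 did not pass. Probe set 1417621_at read 6.89, 6.91, 6.82 and 6.64 in knockout, against 6.68, 6.68 and 6.74 in wild type, a difference of 0.12 with the opposite sign (adjusted p = 0.299). Probe set 1425761_a_at read 6.08, 5.99, 5.26 and 5.51 in knockout, against 5.86, 5.63 and 5.74 in wild type (-0.03, adjusted p = 0.912). Knockout replicates 1 and 2 lay above the wild-type arrays for that probe set, and replicates 3 and 4 below them. The dimmest, 1447084_at, ran from 4.22 to 4.70 in knockout and from 4.44 to 4.68 in wild type (-0.15, adjusted p = 0.394). With the mean of the 4 probe sets in place of the brightest, the difference was -0.20 (adjusted p = 0.0646). Which transcripts of Nfatc1 each probe set reads was not tested.

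Mitf encodes a basic helix-loop-helix factor that, with its relatives, switches on acid and protease genes of osteoclasts. Its brighter probe set read 9.29, 9.23, 8.82 and 8.71 in knockout, against 9.54, 9.58 and 9.64 in wild type. All knockout arrays were lower than all wild-type arrays, with replicates 3 and 4 the lowest. The mean was 9.01 ± 0.29 (SD, n = 4) in knockout and 9.59 ± 0.05 (SD, n = 3) in wild type, a fall of 1.49-fold (log2 difference -0.57, SE 0.15, limma adjusted p = 0.021). The log2 difference was -0.33 with only knockout replicates 1 and 2 (adjusted p = 0.00228) and -0.82 with only replicates 3 and 4 (adjusted p = 9.39e-05). Of all genes, 68.1% and 57% were called in these settings, which leave out the spread between the pairs. The dimmer probe set overlapped between groups, with 4.88, 4.69, 3.96 and 4.34 in knockout against 5.02, 4.65 and 4.80 in wild type (difference -0.35, SE 0.22, adjusted p = 0.233). Mitf did not pass with the knockout pairs as random blocks (adjusted p = 0.145), without wild-type replicate 1 (0.0578), 2 (0.0659) or 3 (0.0737), or with the mean of its probe sets (0.0675).

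RefSeq lists 3 starts of Mitf on the plus strand of chromosome 6 (GRCm38.p6), and they are printed because the fall of the brighter probe set cannot be assigned to one of them. Capitals mark the Gfi1 core, read as AATC on the plus strand and, where it lies on the minus strand, as GATT. The windows are chr6:97806808-97807107, chr6:97929567-97929866 and chr6:97991533-97991832, in this order.
Mitf start 1: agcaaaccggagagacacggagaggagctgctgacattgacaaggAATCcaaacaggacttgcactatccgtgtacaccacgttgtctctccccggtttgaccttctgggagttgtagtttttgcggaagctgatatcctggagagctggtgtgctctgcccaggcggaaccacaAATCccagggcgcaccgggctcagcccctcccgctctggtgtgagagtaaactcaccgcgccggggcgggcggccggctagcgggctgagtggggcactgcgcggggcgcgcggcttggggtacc
Mitf start 2: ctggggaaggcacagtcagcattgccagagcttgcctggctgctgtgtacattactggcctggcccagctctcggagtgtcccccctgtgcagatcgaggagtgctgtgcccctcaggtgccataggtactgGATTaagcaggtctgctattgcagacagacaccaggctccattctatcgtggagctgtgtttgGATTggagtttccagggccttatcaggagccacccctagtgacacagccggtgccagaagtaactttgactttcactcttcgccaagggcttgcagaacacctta
Mitf start 3: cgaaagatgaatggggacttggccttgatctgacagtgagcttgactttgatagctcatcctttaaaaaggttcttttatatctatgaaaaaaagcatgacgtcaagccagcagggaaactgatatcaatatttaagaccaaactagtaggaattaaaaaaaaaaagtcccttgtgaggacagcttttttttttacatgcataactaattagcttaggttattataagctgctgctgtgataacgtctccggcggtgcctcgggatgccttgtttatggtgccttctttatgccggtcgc
The core occurred 2 times in the first window, with first bases at positions -205 and -75 from the start, 2 times in the second, at -118 and -55, and 0 times in the third. The NFAT core GGAAA was in the second and the third window, 1 time each, and overlapped no AATC. Neither E-box and no AP-1 motif was found in any of the 3. The core was also searched in the window of Ctsk, which was not called, and occurred 4 times there. In the 3 windows of Acp5, whose expression was not measured, it occurred 1, 2 and 0 times. These are matches of letters and not binding sites.

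Car2 encodes carbonic anhydrase II, which makes the protons that osteoclasts pump onto bone. Its single probe set read 11.61, 11.64, 11.77 and 11.88 in knockout, against 8.97, 8.88 and 8.86 in wild type. The groups were far apart, and the 4 knockout arrays agreed closely whatever their pair. The mean was 11.72 ± 0.12 (SD, n = 4) in knockout and 8.90 ± 0.06 (SD, n = 3) in wild type, a rise of 7.06-fold (log2 difference 2.82, SE 0.08, limma adjusted p = 3.97e-06). On the deposited linear scale the signal was 3122 to 3765 in knockout and 466 to 501 in wild type. By size it was rank 39 among the rises of all 9999 genes. The rise passed under every alternative tried, including the knockout pairs as random blocks (adjusted p = 0.00016).

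Atp6v0d2 encodes the d2 subunit of the V-ATPase, the proton pump, which is enriched in osteoclasts and is needed for fusion of their precursors in mice. Its brighter probe set read 3.93, 3.92, 3.70 and 3.77 in knockout, against 5.34, 5.46 and 5.54 in wild type. No knockout array came within 1 log2 unit of a wild-type array. The mean was 3.83 ± 0.11 (SD, n = 4) in knockout and 5.45 ± 0.10 (SD, n = 3) in wild type, a fall of 3.07-fold (log2 difference -1.62, SE 0.08, limma adjusted p = 2.76e-05; rank 126 among falls). The second probe set fell as well, with 2.72, 2.80, 2.22 and 2.24 in knockout against 4.49, 4.22 and 4.28 in wild type (difference -1.84, SE 0.17, groups not overlapping). In knockout the signal of the brighter probe set was little above that of the lowest 5% of genes, whose limit averaged 3.47 in knockout and 3.52 in wild type, and that of the second was below it. The size of the fall is therefore uncertain, while its direction was the same for both probe sets and passed with the knockout pairs as random blocks (adjusted p = 0.00262).

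The ubiquitous d1 subunit gene Atp6v0d1 did not pass, with 9.57, 9.55, 9.42 and 9.41 in knockout against 9.50, 9.50 and 9.47 in wild type (0.00, SE 0.07, adjusted p = 0.994). The difference between both subunit genes was not tested. Among the measured carbonic anhydrase genes the directions were mixed. Car12, a membrane-bound form, rose by 1.88 on the log2 scale, with 7.34, 7.37, 7.66 and 7.61 in knockout against 5.66, 5.73 and 5.46 in wild type (SE 0.11, limma adjusted p = 4.79e-05). Car6, the secreted form, fell by 1.98, with 6.73, 6.57, 6.39 and 6.46 in knockout against 8.43, 8.55 and 8.56 in wild type (SE 0.09, adjusted p = 2.25e-05).

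Ctsk encodes cathepsin K, the collagen-digesting protease of osteoclasts. Its single probe set read 4.39, 4.32, 4.32 and 4.24 in knockout, against 4.37, 4.65 and 4.56 in wild type. The groups overlapped, and the signal exceeded that of only 9.16% to 10.2% of genes in knockout arrays and 9.43% to 12.03% in wild-type arrays. The difference was -0.21 (SE 0.08, 95% interval -0.40 to -0.02 for this gene alone, limma adjusted p = 0.075), so a change of Ctsk was not detectable over all genes tested. It passed without wild-type replicate 1 (-0.29, adjusted p = 0.0308) and with array weights (-0.31, adjusted p = 0.0184).

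**Figure D2:**
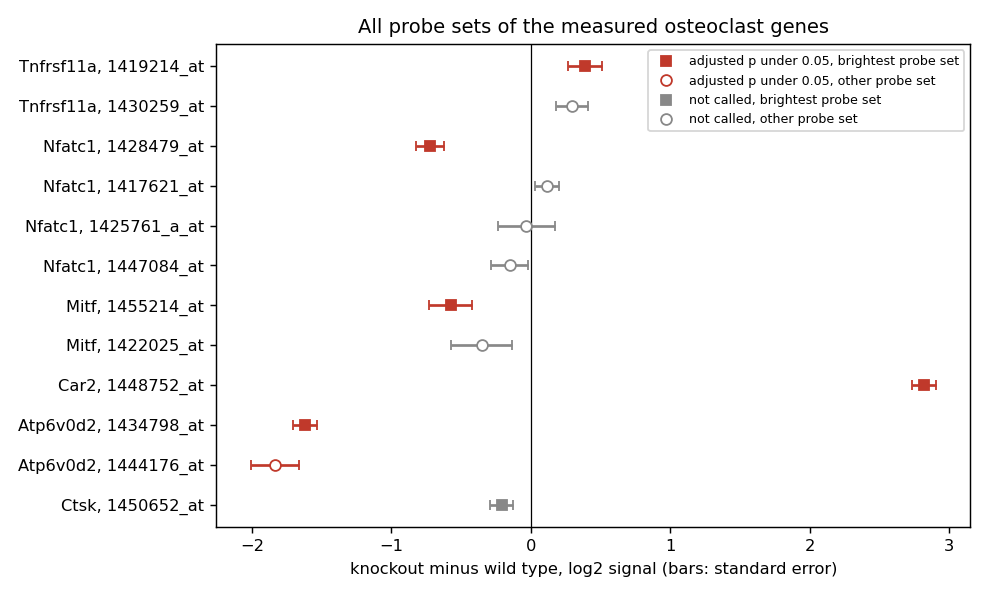
Knockout minus wild type on the log2 scale, with standard errors, for all 12 probe sets of the 6 measured genes. Squares are the brightest probe set of a gene, open circles its others, and red marks an adjusted p under 0.05 over all probe sets. Both Atp6v0d2 probe sets lie near -1.6 and -1.8, whereas 1 of 4 Nfatc1 probe sets lies away from 0.

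Taken by probe set, 6 of 12 passed, 2 higher and 4 lower in knockout, against 40.9% of all 17335 probe sets with 1 gene symbol, and for 7 of 12 the groups did not overlap, against 53.4% of those probe sets.

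Upstream of the listed genes, receptor and signalling genes of the osteoclast path changed in both directions. Of 27 measured (34 listed), 10 fell, 5 rose and 12 did not pass, beside 21.6% of all genes lower and 21.5% higher, with a median difference of -0.15. The receptor gene Trem2, whose protein costimulates RANK through the adaptor TYROBP, fell by 2.78 on the log2 scale, with 6.95, 6.91, 8.28 and 8.36 in knockout against 10.43, 10.40 and 10.38 in wild type (SE 0.40, limma adjusted p = 0.0017). Tyrobp, the adaptor, fell by 0.92, with 11.69 to 11.81 in knockout against 12.61 to 12.71 in wild type. Csf1r, the receptor of M-CSF and the gene of highest signal in the list, fell by 0.60, with 12.26 to 12.33 in knockout against 12.88 to 12.92 in wild type. The rises were led by Map3k14, the kinase NIK of the alternative NF-kappaB pathway (0.87, SE 0.26, adjusted p = 0.0309), and Tnfaip3, the inhibitor A20 (0.84, SE 0.12, adjusted p = 0.001675), and the others were Mapk8, Map3k7 and Cyld. Map3k14 ran from 4.96 to 5.82 in knockout and from 4.22 to 4.94 in wild type, a narrow gap, and it did not pass without knockout replicates 1 and 2 (adjusted p = 0.0675). The adaptor gene Traf6 had a difference of -0.05 (adjusted p = 0.523). With the knockout pairs as random blocks, a setting under which 9.04% of all genes passed, Trem2, Tyrobp and Csf1r passed as lower and Tnfaip3 as higher in knockout. With only knockout replicates 1 and 2, where 68.1% of all genes passed, 14 of the 27 fell and 11 rose, and with only replicates 3 and 4, where 57% did, 12 fell and 7 rose.

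Transcription factor genes of the pathway changed in both directions too. Of 27 measured (32 listed), 10 rose and 4 fell (Ppargc1b, Bach1, Spi1 and Tal1), which is 51.9% beside 43.1% of all genes, with a median difference of 0.45, and the median was 0.74, 0.66, 0.12 and 0.13 in knockout replicates 1 to 4. Id1, an inhibitor of helix-loop-helix factors, rose by 2.59 on the log2 scale, with 6.64, 6.37, 7.64 and 7.72 in knockout against 4.67, 4.53 and 4.32 in wild type (SE 0.35, limma adjusted p = 0.00128). Its relative Id3 rose by 1.63, with 7.80 to 8.07 in knockout against 6.23 to 6.35 in wild type. Another relative, Id2, did not pass (difference 1.07, limma adjusted p = 0.300). It read 8.66, 8.63, 5.98 and 5.83 in knockout against 6.17, 6.27 and 6.17 in wild type, so that replicates 3 and 4 lay below wild type. In mouse cells Id proteins are known to restrain osteoclast formation by binding MITF. Fosl1, an AP-1 gene that acts downstream of c-Fos, rose by 2.53, with 7.29, 7.31, 6.43 and 6.57 in knockout against 4.47, 4.40 and 4.23 in wild type (SE 0.24, adjusted p = 0.000308). Myc rose by 1.31, and Jund, an AP-1 gene with the highest signal in the list, by 0.49. The MITF relatives Tfe3 and Tfec had differences of 0.13 and 0.15 and did not pass (adjusted p = 0.438 and 0.578), and neither did Fos (0.45, adjusted p = 0.156). Among osteoclast inhibitors, Irf8 had a difference of 0.06 (adjusted p = 0.697), and Bcl6 read 9.16, 9.15, 7.25 and 7.26 in knockout against 7.42, 7.38 and 7.35 in wild type (difference 0.82, adjusted p = 0.254). For Bcl6, replicates 1 and 2 lay above all wild-type arrays and replicates 3 and 4 below them. With the knockout pairs as random blocks, Id1, Fosl1, Id3, Junb and Nfkb2 passed as higher and 0 of the 27 as lower. In that setting 9.04% of all genes were called, and Myc (adjusted p = 0.0507) and Jund (0.237) did not pass. With only knockout replicates 1 and 2, 16 rose and 5 fell, beside 68.1% of all genes called. Replicates 3 and 4 alone gave 13 rises and 6 falls, beside 57% of all genes called.

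**Figure D3:**
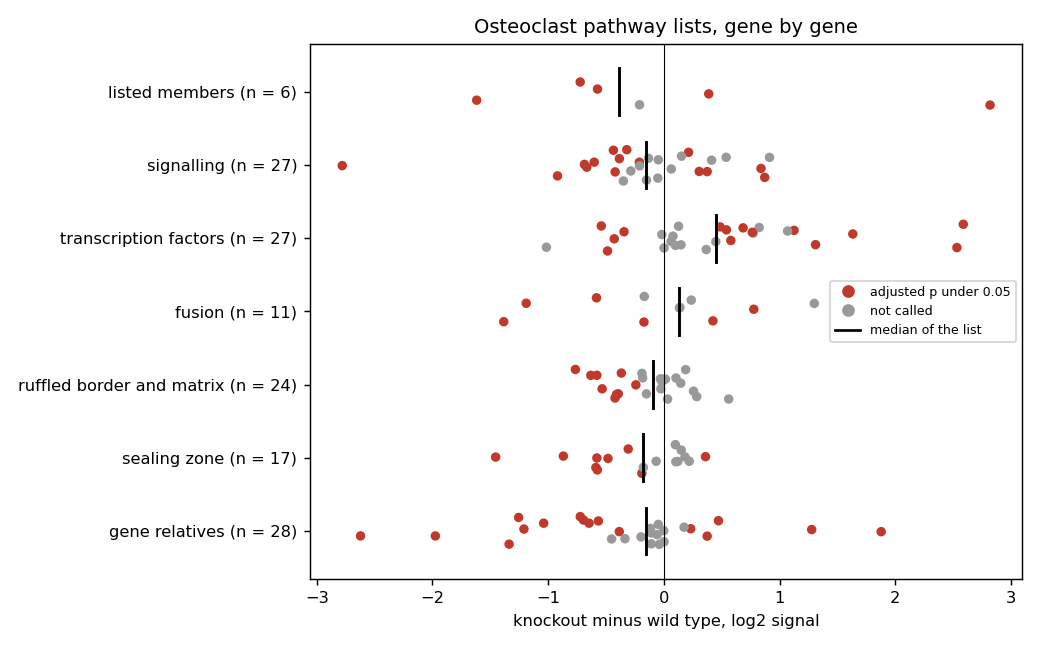
Knockout minus wild type on the log2 scale for each measured gene of the listed members and of 6 pathway lists. Red points passed an adjusted p of 0.05 over all genes, grey points did not, and the black bar is the median of the list. The transcription factor list has its median at 0.45, the signalling, sealing zone and gene relatives lists lie between -0.15 and -0.18, and Car2 and Trem2 are the outermost points on either side.

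Fusion genes were split. Of 11 measured (15 listed), 4 fell and 2 rose, which is 54.5% beside 43.1% of all genes, with a median of 0.14. With the knockout pairs as random blocks, Sirpa and Dock1 passed as lower and Cd47 as higher, beside 9.04% of all genes called. With only knockout replicates 1 and 2, 4 fell and 5 rose, beside 68.1% of all genes called. Replicates 3 and 4 alone gave 5 falls and 2 rises, beside 57% of all genes called. The receptor gene Sirpa fell by 1.38, with 7.66 to 7.85 in knockout against 9.10 to 9.22 in wild type (SE 0.07, limma adjusted p = 2.695e-05), while its ligand gene Cd47 rose by 0.78, with 11.07 to 11.33 in knockout against 10.35 to 10.46 in wild type (SE 0.08, adjusted p = 0.000448). The guanine nucleotide exchange factor gene Dock1 fell by 1.19 and the podosome scaffold gene Sh3pxd2a by 0.58, and Cd81 was the remaining fall and Dock5 the remaining rise. Sh3pxd2a did not pass with the knockout pairs as random blocks (adjusted p = 0.216). Dcstamp, which encodes a membrane protein required for osteoclast fusion, read 8.45, 8.25, 6.70 and 6.48 in knockout, against 6.26, 6.03 and 6.23 in wild type. All knockout arrays lay above the wild-type arrays, but the difference of 1.30 did not pass (SE 0.51, adjusted p = 0.076). It was 2.18 with only knockout replicates 1 and 2 (adjusted p = 7.23e-06) and 0.42 with only replicates 3 and 4 (adjusted p = 0.011).

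Genes of the ruffled border, the folded membrane that secretes acid and enzymes, were lower in knockout where they passed with all arrays. Of 24 measured (26 listed), 9 fell and 0 rose, and the median was -0.09. The share called was 37.5%, all of it lower, beside 43.1% of all genes in either direction and 21.6% lower. The small GTPase gene Rab7 fell by 0.76, with 9.11 to 9.46 in knockout against 10.03 to 10.05 in wild type (SE 0.11, limma adjusted p = 0.00142). Plekhm1, a vesicle adaptor whose loss causes osteopetrosis, fell by 0.63, the lysosomal membrane gene Lamp1 by 0.58 and the V-ATPase accessory gene Atp6ap1 by 0.53. Tcirg1, the osteoclast a3 subunit of the pump, had a difference of 0.01 (adjusted p = 0.926). With only knockout replicates 1 and 2, 9 of the 24 fell and 7 rose, beside 68.1% of all genes called. Replicates 3 and 4 alone gave 14 falls and 1 rise, beside 57% of all genes called. With the knockout pairs as random blocks 1 of the 24 passed, Rab7, beside 9.04% of all genes. Plekhm1 (adjusted p = 0.0934), Lamp1 (0.0523) and Atp6ap1 (0.0593) did not pass.

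Sealing zone genes, which build the actin ring that clamps an osteoclast to bone, were lower where they passed with all arrays, except for Rac2. Of 17 measured (21 listed), 8 fell and 1 rose (Rac2, 0.36), which is 52.9% beside 43.1% of all genes, with a median of -0.18. Gsn, the actin-severing protein gelsolin, fell by 1.45, with 8.75 to 8.97 in knockout against 10.23 to 10.42 in wild type (SE 0.08, limma adjusted p = 2.94e-05). Wipf1, a partner of the WASP proteins, fell by 0.87, Vcl, the adhesion protein vinculin, by 0.59 and Vav3, an exchange factor for Rac, by 0.58. Fermt3, an integrin activator and the gene of highest signal in the list, had a difference of 0.18 (adjusted p = 0.0547). With the knockout pairs as random blocks only Gsn of the 17 passed, beside 9.04% of all genes. With only knockout replicates 1 and 2, 8 fell and 5 rose, beside 68.1% of all genes called. Replicates 3 and 4 alone gave 10 falls and 3 rises, beside 57% of all genes called.

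Among 28 measured relatives of the 8 genes (54 listed), 11 fell and 5 rose (Car12, Car13, Car9, Acp1 and Acp6), which is 57.1% beside 43.1% of all genes, with a median of -0.16. Of these relatives, 8 passed as lower and 2 as higher (Car12 and Car13) with the knockout pairs as random blocks, beside 9.04% of all genes. In knockout replicates 1 and 2 alone, 13 fell and 6 rose, beside 68.1% of all genes called. Replicates 3 and 4 alone gave 13 falls and 4 rises, beside 57% of all genes called. Timp2, an inhibitor of matrix metalloproteinases, fell by 2.62, with 4.58 to 4.83 in knockout against 7.20 to 7.48 in wild type (SE 0.09, limma adjusted p = 7.25e-06). Next to Car6 and Car12, given above, the cathepsin O gene Ctso fell by 1.34, with 6.46 to 6.74 in knockout against 7.88 to 7.89 in wild type (SE 0.08, adjusted p = 5.085e-05). Ctss, a macrophage cathepsin and the gene of highest signal here, fell by 0.57, with 12.07 to 12.17 in knockout against 12.67 to 12.71 in wild type. The NFAT relatives Nfatc2, Nfatc3 and Nfat5 had differences of -0.11, -0.34 and -0.05 and did not pass (adjusted p = 0.477, 0.0736 and 0.772). Some genes of these lists were named to account for small counts or for their roles, and were chosen after their values were seen. These are Mapk8, Map3k7, Cyld, Traf6, Ppargc1b, Bach1, Spi1, Tal1, Id2, Tfe3, Tfec, Fos, Irf8, Bcl6, Junb and Nfkb2. The others are Cd81, Dock5, Dcstamp, Atp6v0d1, Tcirg1, Rac2, Car13, Car9, Acp1, Acp6 and the NFAT relatives.

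The macrophage markers, 6 of 8 of them lower in knockout, moved in the direction of the falls of these lists, and their part in them was not tested. Csf1r and Spi1 are markers and also members of the signalling and transcription factor lists, so part of this likeness is fixed by shared genes. The transcription factor list itself had 10 rises and 4 falls. The lists too were chosen with earlier results known, so their shares carry no test. Over all 6 lists the shares called ran from 37.5% to 57.1%, beside 43.1% of all genes, and of 69 genes called in them 24 passed with the knockout pairs as random blocks. Among all 9999 genes, 4305 were called with the main fit and 904 with the knockout pairs as random blocks.

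**Figure D4:**
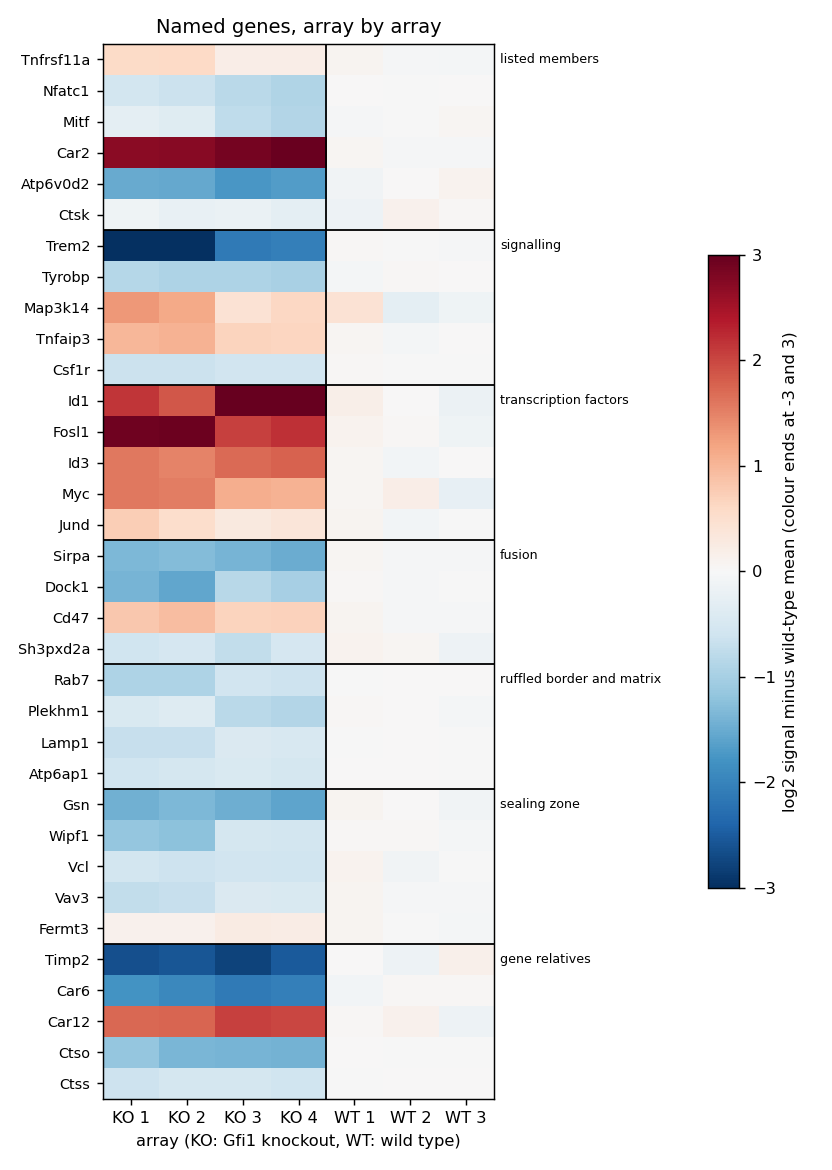
Log2 signal minus the wild-type mean in every array for the 6 osteoclast genes and the named genes of the 6 lists, with knockout arrays in the left 4 columns and wild-type arrays in the right 3. Red is above and blue below the wild-type mean, and colours end at -3 and 3. Car2, Atp6v0d2, Sirpa, Gsn and Timp2 have about the same shade in all 4 knockout arrays, while Tnfrsf11a, Mitf, Trem2 and Id1 differ between replicates 1 and 2 and replicates 3 and 4.

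The genes most like each osteoclast gene were sought by Pearson's r over the 7 arrays among the 1950 or 1951 other genes whose log2 signal spanned at least 1. Since the arrays form 3 tight clusters, such r values describe these arrays and carry no test. Nearest to Car2 were 2610005L07Rik and Gstp1 (r = 0.999 each), which rose by 1.22 and 1.21 on the log2 scale. Nearest to Atp6v0d2 were Car6 (0.999) and the gene of Tlr13 (0.997), a receptor for bacterial ribosomal RNA. Nfatc1 was nearest to the lipoxygenase gene Alox5 (0.998), which makes leukotrienes, and the kinase gene Hipk2 (0.997). Mitf was nearest to Vsir (0.997) and Ms4a6c (0.994), which like it were lowest in knockout replicates 3 and 4. Tnfrsf11a was nearest to Mtmr9 and the enolase gene Eno2 (0.999 each), both highest in knockout replicates 1 and 2. For Ctsk the best values were lower, 0.899 with the complement receptor gene C3ar1 and 0.893 with Apbb1.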

How the data were processed

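RNA of RAW264.7 cells was measured on 7 Affymetrix arrays. By their titles, 3 were wild type and 4 were GfI1-1, called Gfi1 knockout here. The authors deposited 1 value per probe set and array for 19431 probe sets; RMA, without a version, is named per the submitters' processing notes. These deposited intensities are linear by their range, and were turned into log2 values here. Quantile normalization within RMA removes array-wide shifts, and no detection calls were used, so low signal cannot be told from background. Arrays carry no read depth; their number limits the precision.

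Probe sets were named by the platform annotation: 17335 had 1 gene symbol, 532 several and 1564 none. Each of 9999 genes was represented by its probe set of highest mean over 7 arrays. Knockout was compared with wild type in limma 3.58.1 (R 4.3.3) by moderated two-sided tests with Benjamini-Hochberg adjustment over 9999 genes, at an adjusted p of 0.05. SEs and adjusted p-values in the report come from this fit; those of a gene's further probe sets come from a fit over 17335. The tests were tried on simulated data. The osteoclast genes and lists were chosen with earlier results of these data known. Named were all listed genes, Gfi1, up to 4 called genes per list by size with the one of highest mean, and the 2 nearest genes by correlation, with exceptions marked. Alternatives covered normalization, dim genes (under the 40th percentile), an intensity trend with robust prior, array weights, choice of probe set and a fold of 1.2. Others were a replicate block, the knockout pairs as random blocks with the wild-type arrays as a further block, and leaving out arrays or pairs. Promoter windows came from RefSeq (GRCm38.p6), where 4 of the 8 genes matched; Car2, Atp6v0d2, Nfatc1 and Mmp9 did not. Replicate numbers did not pair the arrays: deviations from the group means of same-numbered arrays correlated at 0.124, -0.0902 and 0.106.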

Additional observations from a re-analysis of the deposited data

Results flagged for a closer look

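Sp7, a transcription factor of osteoblasts used as a marker of other cells, had a log2 signal of 4.65 in knockout replicate 1, apart from 4.96, 4.99 and 4.99 in replicates 2 to 4. The gap to the nearest array was 0.913 of the group's range, above Dixon's limit for 4 samples. It was 1 of 62 probe sets looked at in this way, and chance alone marks about 1 in 20.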

How the results depend on the processing

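Car2 and Atp6v0d2 kept their direction and passed in every alternative that could be computed. Without dim genes, Atp6v0d2, Tnfrsf11a and Ctsk had no value, and 1 listed gene was higher. Of the listed genes called higher, 2 in all, 1 was left when tested against a fold of 1.2 and with the knockout pairs as random blocks, and 1 to 2 when single arrays were left out. Of the 3 called lower, 1 was left with probe sets averaged per gene, and 2 to 3 without single arrays. Nfatc1 turned to 0.12 with probe set 1417621_at; which transcripts it reads was not tested. Genes called higher, 2149 of 9999, were 853 against a fold of 1.2, 448 with random blocks, 3406 without knockout replicates 3 and 4, and 1379 to 2182 without single arrays, the lowest without wild-type replicate 2 (1404 without replicate 3). Genes called lower, 2156, were 893, 456, 3408 and 1500 to 2289 in the same settings. Tested singly, 3401 probe sets were higher and 3687 lower, of 17335. With a replicate block, 1947 genes were higher and 1858 lower, and Mitf did not pass (-0.47, adjusted p = 0.0517); of the listed genes 2 were higher and 2 lower. The arrays did not each correlate best with their own number. The causes of these shifts were not tested.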
